A study of Mus musculus with 9 samples.

Results

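The genes described here encode platelet receptors and platelet granule proteins: Gp9, Gp1ba, Gp1bb, Gp6, Itga2b, Itgb3, Pf4, Ppbp and Treml1. They were taken by symbol from a deposited table of 20368 rows, measured by RNA sequencing in erythroblasts, the nucleated precursors of red cells. Of the 9 listed symbols, 8 had a row of their own. Gp1bb had none, and its reads stood in 1 row that the authors' table shares between Gp1bb and its overlapping neighbour Sept5, so that row is given as Gp1bb+Sept5 and cannot be assigned to Gp1bb alone.

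The cells came from the spleens of C57BL/6 mice aged 4 weeks and were sorted for CD71, the transferrin receptor, together with Ter119, an erythroid surface antigen. There were 3 Dhh-/- (knockout), 3 Dhh+/- (heterozygous) and 3 wildtype libraries, and Dhh encodes the secreted signal Desert hedgehog. The labels name no other allele or agent. They leave it unstated whether the 3 libraries of a genotype are 3 mice, and the p-values cover library-to-library spread, which may be technical. Dhh was listed at 0 FPKM in 8 libraries, wildtype ones included, and at 0.0267 FPKM in heterozygous replicate 1, which leaves the genotype labels without a check from this gene.

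Megakaryocytes are the large marrow and spleen cells that shed platelets, and they share a progenitor with erythroblasts. Both lineages use the transcription factors Gata1, Nfe2, Gfi1b and Zfpm1, while Fli1 promotes the megakaryocyte fate. On the platelet, Gp1ba, Gp1bb, Gp9 and Gp5 form the receptor for von Willebrand factor. Itga2b (CD41) pairs with Itgb3 to form the fibrinogen receptor, and Gp6 binds collagen. Pf4 and Ppbp are chemokines stored in alpha granules, and Treml1 is a granule membrane receptor that activation brings to the surface.

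The promoters of the best expressed members, Gp9 and Itga2b, are shown with those of Gp1ba, a partner of Gp9 in its receptor, and of the chemokine Pf4, which were present only as traces. Each runs from 250 bases before to 50 bases after the start of the gene in RefSeq on GRCm38.p6, 5′ to 3′ on the gene's strand. The regions are chr6:87777820-87778119 on the plus strand for Gp9, chr11:102469834-102470133 on the minus strand for Itga2b, chr11:70638872-70639171 on the plus strand for Gp1ba and chr5:90772185-90772484 on the plus strand for Pf4. The GENCODE annotation, used for gene positions below, starts Itga2b at 102470122, near the upstream end of its window. By that annotation most of the Itga2b window lies inside the gene. Capitals mark matches, on either strand, to the GATA words AGATAA or TGATAA, and likewise AGATAG or TGATAG.
Gp9: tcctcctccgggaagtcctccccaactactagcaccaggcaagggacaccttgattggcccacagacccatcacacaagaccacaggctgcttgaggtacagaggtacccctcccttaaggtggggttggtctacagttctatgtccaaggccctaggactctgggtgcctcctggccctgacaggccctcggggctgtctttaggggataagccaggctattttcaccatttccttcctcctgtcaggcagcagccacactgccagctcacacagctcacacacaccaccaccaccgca
Itga2b: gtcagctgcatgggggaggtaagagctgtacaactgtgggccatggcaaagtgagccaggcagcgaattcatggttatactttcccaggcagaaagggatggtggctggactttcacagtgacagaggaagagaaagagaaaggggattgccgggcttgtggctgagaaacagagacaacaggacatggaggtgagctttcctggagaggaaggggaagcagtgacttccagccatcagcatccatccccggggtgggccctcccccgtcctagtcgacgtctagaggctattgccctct
Gp1ba: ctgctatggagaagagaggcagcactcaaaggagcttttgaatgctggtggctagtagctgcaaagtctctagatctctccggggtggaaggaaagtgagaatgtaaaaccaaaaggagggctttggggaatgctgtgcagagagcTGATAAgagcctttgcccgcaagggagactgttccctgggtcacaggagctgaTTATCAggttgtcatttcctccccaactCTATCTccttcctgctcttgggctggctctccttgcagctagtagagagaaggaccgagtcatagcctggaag
Pf4: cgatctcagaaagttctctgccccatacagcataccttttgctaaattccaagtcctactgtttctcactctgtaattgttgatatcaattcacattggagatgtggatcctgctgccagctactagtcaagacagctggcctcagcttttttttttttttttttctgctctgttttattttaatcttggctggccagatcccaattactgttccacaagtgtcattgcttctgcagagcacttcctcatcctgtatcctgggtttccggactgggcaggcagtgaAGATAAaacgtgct

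The 4 GATA words had 0 matches in the Gp9 window and 0 in the Itga2b window, against 3 in Gp1ba and 1 in Pf4. For Pf4, the match began at base 37 of the gene. Of 32851 RefSeq promoter windows of the same length, 29.8% held at least 1 of these words. The ETS words AGGAAG and CGGAAG, searched on both strands and sharing no letters with the GATA matches in these 4 windows, were found once in Gp9, in Gp1ba and in Pf4, and 2 times in Itga2b. At least 1 ETS word was present in 46.5% of all windows. In Gp9 and in Gp1ba the ETS word lay at the same place, from 16 to 11 bases before the start. RefSeq windows were matched for 8 of the 9 members. Of the other 4, Gp1bb held 1 GATA and 2 ETS words, Gp6 held 1 GATA and 0 ETS words, and Ppbp and Treml1 held neither. These matches describe letters in the windows, and no binding was measured.

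Gp9 and Itga2b were well expressed in every library, and the other 7 rows averaged under 1 FPKM. Levels are the authors' FPKM-type values, which correct for gene length, so genes can be compared within a library. Gp9 and Itga2b made up 90.4% to 97.7% of the summed FPKM of the 9 rows. Over the 9 libraries Gp9 averaged 26.8 FPKM, above 87.4% of the rows of the table, and Itga2b averaged 12.2 FPKM, above 79.3%. These shares count all 20368 rows, of which 14934 were above 0 in at least 1 library, so the ranks among expressed genes are lower. The remaining 7 rows together summed to 0.941 to 3.44 FPKM per library. The filter of at least 1 FPKM in at least 3 libraries kept Gp9 and Itga2b, so 2 of the 9 rows were tested.

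Gp9 (ENSMUSG00000030054, chromosome 6, 87778072 to 87779768, plus strand, mm10) is the small subunit of the von Willebrand factor receptor. Its level was 31.9, 19.2 and 33.6 FPKM in knockout replicates 1 to 3, 24.2, 29.4 and 24.4 FPKM in heterozygous replicates and 20.9, 24.4 and 33.0 FPKM in wildtype replicates. Knockout replicate 2 and wildtype replicate 1 were the lowest libraries, knockout replicate 3 and wildtype replicate 3 were the highest, and the 3 genotypes overlapped. These values rest on 147 to 358 recovered reads per library. The means were 28.3 ± 7.91 in knockout, 26.0 ± 2.97 in heterozygous and 26.1 ± 6.24 FPKM in wildtype libraries (SD, n = 3 each).

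Itga2b (ENSMUSG00000034664, chromosome 11, 102453297 to 102470122, minus strand, mm10) encodes the alpha subunit of the fibrinogen receptor, which early blood progenitors also carry. It was at 13.2, 12.3 and 19.3 FPKM in knockout replicates 1 to 3, 13.3, 7.22 and 12.96 FPKM in heterozygous replicates and 13.9, 10.6 and 6.72 FPKM in wildtype replicates. Wildtype replicate 3 and heterozygous replicate 2 were the lowest, knockout replicate 3 was the highest, and the genotypes overlapped. The reads behind them numbered 181 to 862 per library. The means were 14.95 ± 3.77 in knockout, 11.2 ± 3.42 in heterozygous and 10.4 ± 3.58 FPKM in wildtype libraries (SD, n = 3 each).

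**Figure D1:**
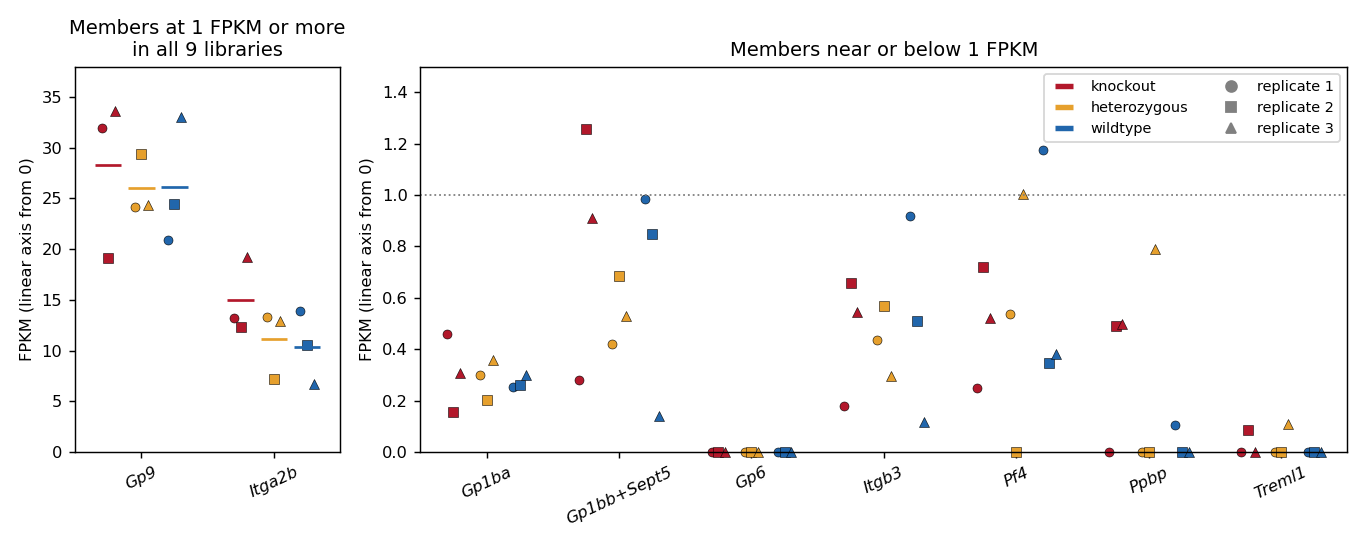
FPKM of each member in each library (points, shape by replicate), by genotype, on linear axes from 0, with bars at the genotype means for Gp9 and Itga2b in the left panel. Gp9 and Itga2b lie between 6.72 and 33.6 FPKM, while the right panel, with a dotted line at 1 FPKM, holds the other 7 rows, none above 1.26 FPKM.

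The partners of Gp9 and Itga2b were not expressed beside them at a like level. Gp1ba (ENSMUSG00000050675, chromosome 11, 70639122 to 70642036, plus strand), the subunit that binds von Willebrand factor, was at 0.458, 0.155 and 0.309 FPKM in knockout, 0.301, 0.201 and 0.360 FPKM in heterozygous and 0.253, 0.261 and 0.301 FPKM in wildtype libraries. These are 4 to 17 reads per library, and Gp9 exceeded Gp1ba 67.8-fold to 147-fold in the same library. Gp5, the remaining subunit, was at 0 to 0.116 FPKM. Itgb3 (ENSMUSG00000020689, chromosome 11, 104608000 to 104670476, plus strand), the beta subunit that pairs with Itga2b, was at 0.178, 0.659 and 0.545 FPKM in knockout, 0.437, 0.569 and 0.295 FPKM in heterozygous and 0.917, 0.512 and 0.116 FPKM in wildtype libraries. Itga2b exceeded Itgb3 12.7-fold to 74.2-fold. The highest and the lowest Itgb3 value were both in wildtype, in replicates 1 and 3.

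The shared row of Gp1bb and Sept5 (chromosome 16, minus strand, Gp1bb from 18620317 to 18622403 and Sept5 from 18620502 to 18629954) had 0.280, 1.26 and 0.912 FPKM in knockout, 0.420, 0.684 and 0.529 FPKM in heterozygous and 0.985, 0.848 and 0.142 FPKM in wildtype libraries. Sept5 encodes a septin, a filament-forming GTPase. The row was highest in knockout replicate 2 and lowest in wildtype replicate 3, and the genotypes overlapped.

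The granule chemokines had at most 13 reads in any library. Pf4 (ENSMUSG00000029373, chromosome 5, 90772435 to 90773383) had 2, 4 and 4 reads in knockout, 5, 0 and 9 reads in heterozygous and 6, 2 and 3 reads in wildtype libraries. Its highest level was 1.18 FPKM, in wildtype replicate 1. Ppbp (ENSMUSG00000029372, chromosome 5, 90768518 to 90770063), its neighbour on the chromosome, had 0, 5 and 7 reads in knockout, 0, 0 and 13 reads in heterozygous and 1, 0 and 0 reads in wildtype libraries. Most Ppbp reads thus came from heterozygous replicate 3, knockout replicate 3 and knockout replicate 2, and heterozygous replicate 3 also had the most reads of Pf4. The exact Poisson 95% intervals, which cover counting error only, were 6.92 to 22.2 reads for the 13 Ppbp reads and 0 to 3.69 reads for a library without any.

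Treml1 (ENSMUSG00000023993, chromosome 17, 48359916 to 48367176) had 1 read in knockout replicate 2, 2 reads in heterozygous replicate 3 and 0 in the other 7 libraries. Gp6 (ENSMUSG00000078810, chromosome 7, 4363965 to 4397744) was listed at 0 in all 9 libraries. For 1 library taken alone, a count of 0 was taken to allow up to 3 reads, while the 2-sided Poisson interval above ends at 3.69. The 9 zeros of Gp6 together allow fewer reads per library than either limit. For Treml1, 3 reads would correspond to 0.155 to 0.337 FPKM and for Ppbp to 0.176 to 0.381 FPKM, depending on the library. Differences in Treml1 and Ppbp below that size were not detectable at this depth.

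The first comparison asked whether loss of both Dhh alleles changed these genes. Neither Gp9 nor Itga2b passed the test between knockout and wildtype libraries. The limma model called 0 of the 2 tested members at an adjusted p below 0.05, where it called 0% of all 9543 tested genes. The log2 difference of Gp9 was 0.095 ± 0.23 (SE), with a 95% interval from -0.44 to 0.63 (limma adjusted p = 0.9997). For Itga2b it was 0.51 ± 0.30, with an interval from -0.17 to 1.19 (limma adjusted p = 0.9997, unadjusted p = 0.122). On the fold scale of FPKM + 1, these intervals run from 0.739 to 1.54 for Gp9 and from 0.891 to 2.28 for Itga2b, so a difference of that size in Itga2b could not be told from none. An unadjusted p below 0.05 was reached by 43 genes, and by neither member. Groups did not overlap for 0 of the 2 members and for 2.48% of all tested genes.

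The estimate for Itga2b moved with single libraries. Without wildtype replicate 3 its log2 difference between knockout and wildtype was 0.25 ± 0.28, and without wildtype replicate 1 it was 0.73 ± 0.31 (limma adjusted p = 0.9784 and 0.9652). Without knockout replicate 3 it was 0.32. Gp9 changed sign between omissions, with 0.27 without wildtype replicate 3, -0.047 without wildtype replicate 1 or without knockout replicate 3, and -0.011 without knockout replicate 1. Without knockout replicate 2, a shallower library, Gp9 was at 0.34. The depth of the libraries ran across the genotypes: knockout replicate 2, heterozygous replicate 2 and wildtype replicates 1 and 2 were sequenced to 7.05 to 9.66 M recovered reads, and the remaining 5 to at least 13.05 M. Among the deeper libraries Itga2b averaged 16.3 FPKM in knockout (n = 2) and was at 6.72 FPKM in the 1 wildtype library, and among the shallower ones it was at 12.3 FPKM in the 1 knockout library and averaged 12.2 FPKM in wildtype (n = 2). The same values for Gp9 were 32.8 and 33.0 FPKM in the deeper knockout and wildtype libraries, and 19.2 and 22.6 FPKM in the shallower ones. In heterozygous libraries the order of Gp9 was the reverse, at 24.3 FPKM in the deeper (n = 2) and 29.4 FPKM in the 1 shallower library. Heterozygous Itga2b was at 13.1 FPKM in the deeper and 7.22 FPKM in the shallower ones. With the depth class as a term in the model, the log2 difference between knockout and wildtype was 0.47 ± 0.32 for Itga2b and -0.017 ± 0.21 for Gp9 (SE; limma adjusted p = 0.9825 and 0.9931).

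The heterozygous libraries asked what the loss of 1 allele does. Between heterozygous and wildtype libraries the log2 difference was 0.013 ± 0.23 for Gp9 (interval -0.52 to 0.54) and 0.10 ± 0.30 for Itga2b (interval -0.58 to 0.78). Limma called 0 of the 2 members and 0% of all genes, with 113 genes at an unadjusted p below 0.05 (limma adjusted p = 0.9999 for both members). The mean FPKM of Gp9 ran the other way, at 25.99 in heterozygous and 26.10 in wildtype libraries. Between knockout and heterozygous libraries the log2 difference was 0.082 ± 0.23 for Gp9 (interval -0.45 to 0.61) and 0.41 ± 0.30 for Itga2b (interval -0.27 to 1.09), again with 0 members and 0% of genes called and 56 genes at an unadjusted p below 0.05 (limma adjusted p = 0.9996 for both). Itga2b was at 0.15 between knockout and heterozygous libraries without heterozygous replicate 2 and at 0.22 without knockout replicate 3, and between heterozygous and wildtype libraries it was -0.15 without wildtype replicate 3 and 0.36 without heterozygous replicate 2. Groups did not overlap for 0 of the 2 members in either comparison, against 4.36% and 4.48% of all genes. The comparisons with wildtype share the wildtype libraries, and both comparisons of the knockout share the knockout libraries.

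**Figure D2:**
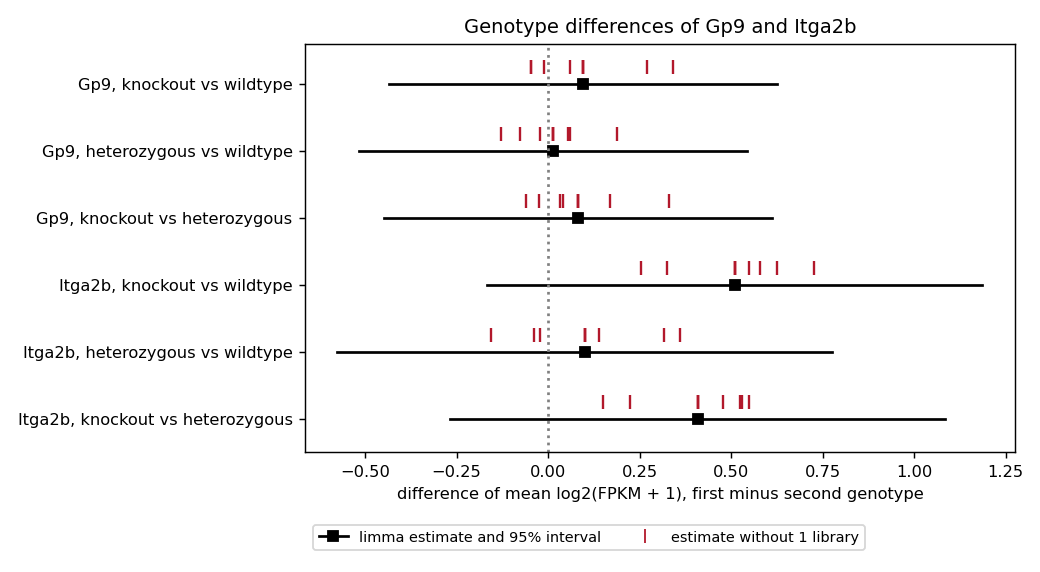
Difference of mean log2(FPKM + 1) for Gp9 and Itga2b in the 3 genotype comparisons, with squares for the limma estimate, lines for its 95% interval and red ticks for the estimate without each library in turn. All 6 intervals cross 0, from -0.44 to 0.63 for Gp9 and from -0.17 to 1.19 for Itga2b between knockout and wildtype, and ticks of Gp9 fall on both sides of 0 in each comparison.

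The low members were set beside these in a fit of the recovered reads (limma's voom, genes with at least 10 reads in all libraries together), chosen after seeing the data. It called 0 of the 5 low rows it could fit in any comparison, where it called 0 of all 12783 fitted genes. Between knockout and wildtype the log2 differences were 0.087 ± 0.52 for Gp1ba, 0.54 ± 0.78 for Gp1bb+Sept5, 0.17 ± 0.77 for Itgb3 and -0.23 ± 0.87 for Pf4 (SE). Ppbp was fitted too, but with 1 wildtype read in all its fold depends on the offset of the model, and Treml1 and Gp6 had too few reads. The standard errors of these 4 rows, 0.52 or more, exceed those of Gp9 and Itga2b.

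Other platelet genes likewise ranged from abundant to barely detected. Of 63 further platelet genes in the table, 38 passed the filter and 21 never reached 1 FPKM in any library. Among 22 other surface receptors, 12 were tested. The most abundant were Cd36, a fatty acid and thrombospondin receptor, at 137 to 279 FPKM, Fcer1g, the signalling chain that pairs with Gp6 and with Fc receptors, at 32.3 to 276 FPKM, the integrin subunit Itgb1 at 46.7 to 64.6 FPKM and the tetraspanin Cd9 at 2.89 to 24.8 FPKM. Selp (P-selectin) stayed at or below 0.215 FPKM.

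Granule cargo and secretion genes numbered 20, of which 11 were tested. Tgfb1, a cytokine, was at 34.5 to 54.8 FPKM, Srgn, a granule proteoglycan of blood cells, at 27.9 to 75.9 FPKM, Stxbp2 at 26.0 to 32.9 FPKM and Unc13d at 6.92 to 12.4 FPKM; the last pair act in granule release. Vwf, the ligand of the Gp9 receptor and a product of megakaryocytes and endothelium, lay between 5.70 and 7.77 FPKM in all 9 libraries. It averaged 6.62 ± 0.742 in knockout, 6.82 ± 0.746 in heterozygous and 6.61 ± 1.057 FPKM in wildtype libraries (SD, n = 3 each). Of the cytoskeleton and signalling genes, 21 of 22 were in the table and 15 were tested. Tln1 (talin) was at 130.01 to 145 FPKM, Fermt3 (kindlin-3) at 61.4 to 92.8 FPKM, Parvb at 57.7 to 81.8 FPKM and Rap1b, a GTPase that acts on integrins, at 31.1 to 66.1 FPKM. Tubb1, the beta-tubulin of platelets, had at most 1.05 FPKM, in knockout replicate 2.

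**Figure D3:**
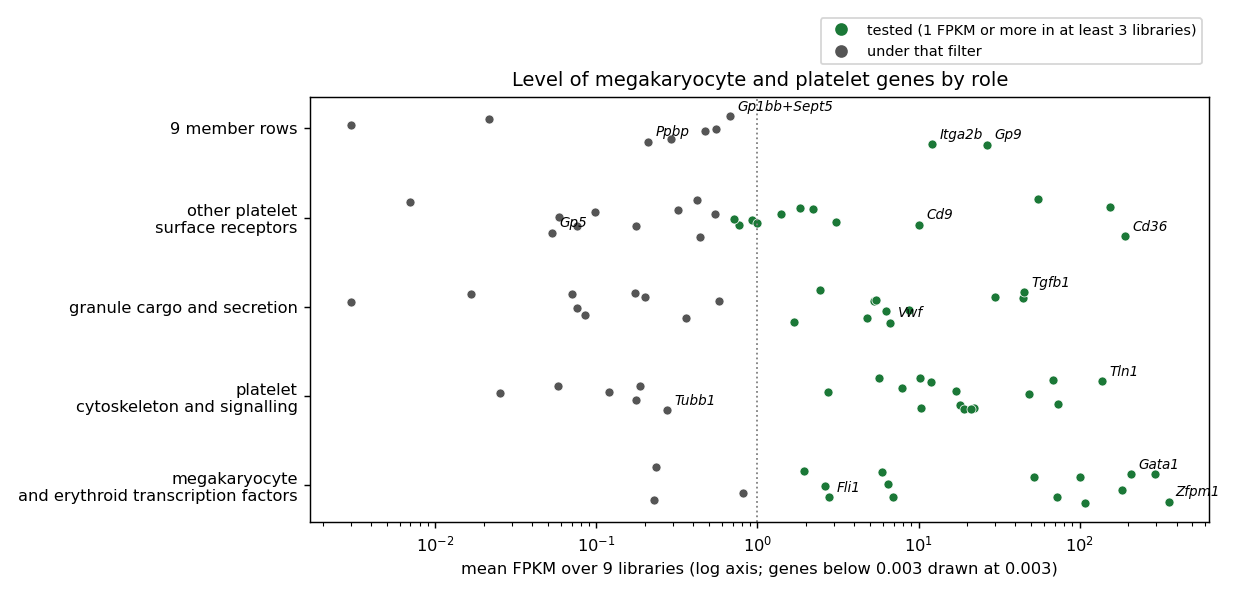
Mean FPKM over the 9 libraries (log axis) of the member rows and of 4 lists of platelet and megakaryocyte genes, with green points for genes that passed the filter and grey points for those that did not, and a dotted line at 1 FPKM. Gp9 and Itga2b stand at 26.8 and 12.2 FPKM, apart from the 7 other member rows, all at 0.673 FPKM or less.

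The shared transcription factors were abundant, and Fli1, which promotes the megakaryocyte fate, was low beside them. Zfpm1 was at 293 to 397 FPKM, Nfe2 at 240.5 to 368 FPKM, Gata1 at 171 to 254 FPKM, Tal1 at 154 to 210 FPKM and Gfi1b at 75.5 to 160.0 FPKM, with the genotypes overlapping. Runx1, needed for platelet formation, was at 7.41 ± 1.17 in knockout, 6.96 ± 0.804 in heterozygous and 6.56 ± 1.28 FPKM in wildtype libraries (SD, n = 3 each). Fli1 was at 1.64, 3.91 and 2.04 FPKM in knockout, 2.83, 3.06 and 2.97 FPKM in heterozygous and 5.11, 2.88 and 0.727 FPKM in wildtype libraries, highest and lowest within wildtype.

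No gene of these 4 lists passed the test in any comparison, where 0% of all 9543 tested genes passed. Between knockout and wildtype, 5 of 12 surface receptors, 5 of 11 granule genes, 9 of 15 cytoskeleton genes and 7 of 14 transcription factors had a positive log2 difference, with medians of -0.04, -0.02, 0.10 and 0.03 against 0.01 over all tested genes. Between heterozygous and wildtype libraries, 8 of 12, 9 of 11, 14 of 15 and 11 of 14 were positive, with medians of 0.06, 0.14, 0.14 and 0.06 against -0.0020 over all genes. Between knockout and heterozygous libraries 2 of 12, 3 of 11, 1 of 15 and 7 of 14 were positive, with medians of -0.09, -0.04, -0.18 and -0.02 against 0.0037. Among the tested genes of these lists, groups did not overlap for 1 of the 15 cytoskeleton genes between knockout and heterozygous libraries, Pdlim1, a PDZ and LIM adaptor, against 4.48% of all tested genes. Its difference was -0.18 ± 0.25 (SE) and did not pass the test.

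The counts between heterozygous and wildtype libraries turned round without wildtype replicate 3. The cytoskeleton list had a mean log2(FPKM + 1) of 2.40 in that library and of 2.89 to 3.42 in the other 8. Syk, a kinase of platelet and immune receptors, was at 1.74 FPKM there, and at 6.83 FPKM or more in every other library. Without wildtype replicate 3, a comparison chosen after seeing the data, 3 of 12 surface receptors, 5 of 11 granule genes, 5 of 15 cytoskeleton genes and 5 of 14 transcription factors were positive between heterozygous and wildtype libraries, with medians of -0.26, -0.011, -0.24 and -0.053. Between knockout and wildtype libraries 2 of 12, 3 of 11, 4 of 15 and 7 of 14 were then positive. Macrophage and B cell markers turned round likewise. With all libraries 15 of 16 macrophage and 13 of 13 B cell markers were positive between heterozygous and wildtype, with medians of 0.56 and 0.64, and without wildtype replicate 3 it was 0 of 16 and 1 of 13, with medians of -0.41 and -0.20. Their part in the directions of the platelet lists was not tested.

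Gp9 exceeded Itga2b in all 9 libraries, from 1.5-fold in wildtype replicate 1 to 4.91-fold in wildtype replicate 3. The SD of log2(FPKM + 1) over the 9 libraries was 0.284 for Gp9 and 0.435 for Itga2b, above that of 71.2% and 85.1% of tested genes. Wildtype replicate 3 had Gp9 near its highest level while Itga2b, Itgb3 and Gp1bb+Sept5 were at their lowest. Knockout replicate 2 had the lowest Gp9 and the highest Gp1bb+Sept5 level.

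Markers of several other blood cells were lowest in the library where Itga2b, Itgb3 and Gp1bb+Sept5 were lowest. In wildtype replicate 3, 16 macrophage markers summed to 141 FPKM, 15 B cell markers to 94.3 FPKM, 15 T and NK cell markers to 10.02 FPKM and 14 mast cell and basophil markers to 13.04 FPKM, each the lowest of the 9 libraries, and 4 T and NK cell markers were at 0. Summed macrophage markers ranged from 435 to 1521 FPKM in knockout, 750 to 875 FPKM in heterozygous and 141 to 1292 FPKM in wildtype libraries. The mast cell and basophil markers ranged from 17.5 to 53.5 FPKM in knockout, 25.7 to 38.4 FPKM in heterozygous and 13.04 to 85.3 FPKM in wildtype libraries, led by Prss34 and Mcpt8, proteases of basophils and mast cells, at 0.984 to 28.5 FPKM and 1.07 to 16.8 FPKM. The B cell markers ranged from 372 to 927 FPKM in knockout, 663 to 878 FPKM in heterozygous and 94.3 to 1472 FPKM in wildtype libraries. Neutrophil markers summed to 474 to 1718 FPKM in knockout, 304 to 886 FPKM in heterozygous and 368 to 1845 FPKM in wildtype libraries, and monocyte and dendritic cell markers to 39.7 to 88.9 FPKM in knockout, 61.0 to 83.0 FPKM in heterozygous and 16.6 to 113 FPKM in wildtype libraries. The leading genes were Csf1r, the receptor for macrophage growth factor, at 17.1 to 226 FPKM, Cd74, the invariant chain of class II histocompatibility molecules, at 49.6 to 751 FPKM, and S100a9, a neutrophil calcium-binding protein, at 101 to 539 FPKM. For Itga2b, the other libraries did not keep this order. Heterozygous replicate 2 had the next lowest Itga2b level, -0.62 from its mean on the log2 scale, with macrophage markers at 0.18, B cell markers at 0.62 and T and NK cell markers at 0.46. Knockout replicate 3 had the highest Itga2b level, at 0.68, with macrophage markers at -0.62 and B cell markers at -0.23. Itgb3 and Gp1bb+Sept5 were next lowest in knockout replicate 1, at -0.3 and -0.36, with macrophage markers at -0.57. Itgb3 was highest in wildtype replicate 1, at 0.4, and Gp1bb+Sept5 in knockout replicate 2, at 0.46. Macrophage markers there were at 0.88 and 1.17. Both rows differed in sign from macrophage markers in knockout replicate 3 and in heterozygous replicates 1 and 3. The part of these other blood cells in the levels of Itga2b, Itgb3 and Gp1bb+Sept5 was not tested. The 14 erythroid markers summed to 19130 to 25870 FPKM in knockout, 16590 to 29150 FPKM in heterozygous and 20520 to 28640 FPKM in wildtype libraries, and Alas2, the first enzyme of erythroid heme synthesis, ranged from 2884 to 7458 FPKM. In sorted bulk cells, fewer cells of a type and less RNA per cell cannot be told apart.

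**Figure D4:**
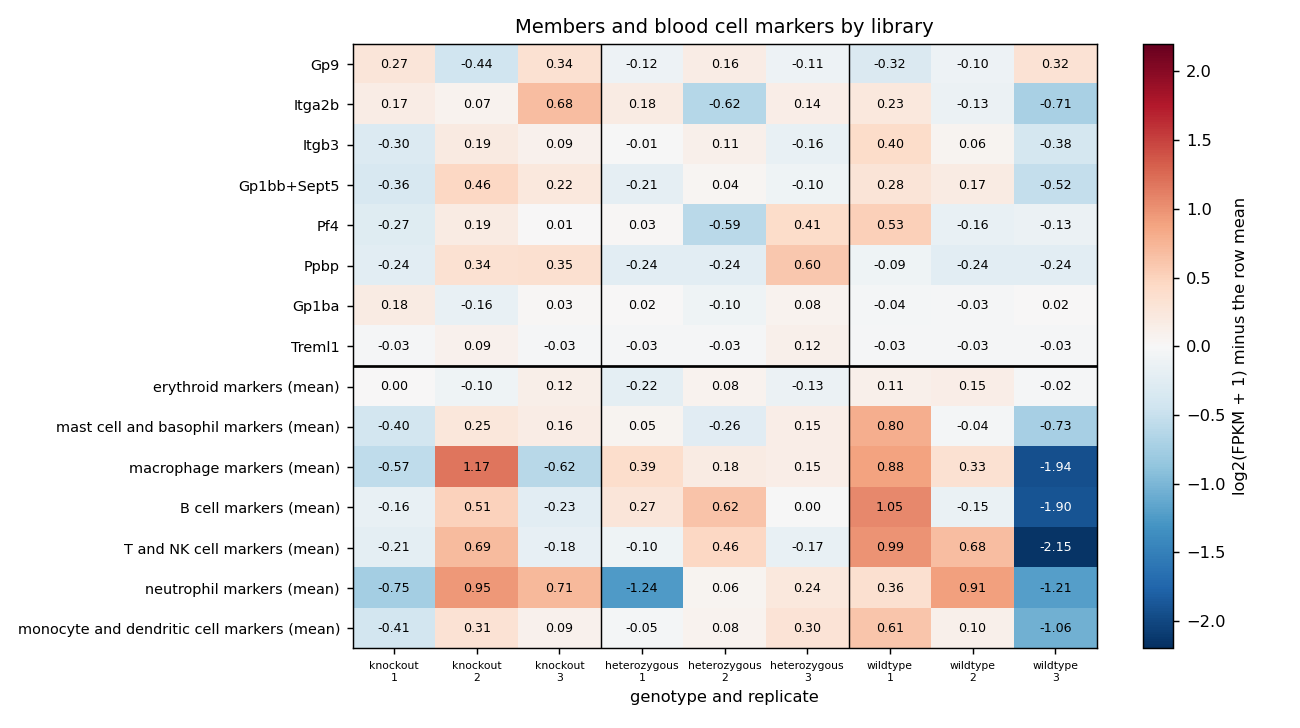
Log2(FPKM + 1) of 8 member rows (above the line) and mean log2(FPKM + 1) of 7 marker lists (below it) in each library, each row minus its own mean over the 9 libraries; red is above and blue below the row's mean. In wildtype replicate 3, Gp9 is at 0.32 and Itga2b at -0.71, beside -1.94 for macrophage, -1.90 for B cell and -2.15 for T and NK cell markers.

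The genes nearest to the mean profile of Gp9 and Itga2b were found by the root-mean-square difference of centred log2(FPKM + 1) values over the 9 libraries. They were Chkb, a choline kinase, at 0.0651, then, among others, Mtfmt, Gtpbp2, Slfn3, Optn, Ankle1 and Atl1 at 0.0747 to 0.0913, against a median of 0.303 over 9541 genes. Since Gp9 and Itga2b differ, each was also compared alone, a step chosen after their values were seen. Arl2, a small GTPase, and Ndufb4, a subunit of respiratory complex I, were among the 3 nearest to Gp9, at 0.0912 and 0.0954. Aim2, a sensor of cytosolic DNA, and H2-T23, a class Ib histocompatibility molecule, were nearest to Itga2b, at 0.178 and 0.198. None of these was a platelet gene of the lists.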

How the data were processed

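RNA sequencing of sorted spleen erythroblasts was deposited by the authors as 1 table of FPKM-type values. TopHat, Picard, DESeq2 and the build mm10 are named in the submitters' processing notes, while versions, annotation, strand and read layout are not given in any source used here. For all 14147 genes above 0 in at least 2 libraries, the FPKM were whole multiples of a step per gene, within 0.05 of a read, scaled by median-of-ratios size factors. Recovered depth ran from 7.05 to 14.23 M reads. For a count of 0 an upper limit of 3 reads was used, which covers counting error only. Symbols turned into dates (26) were restored, and 180 rows had no symbol. Positions came from GENCODE M21 on the same build.

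Limma 3.58.1 in R 4.3.3 fitted log2(FPKM + 1), which understates the changes of low genes, with a mean per genotype over 9 libraries (eBayes with a trend, genes at 1 FPKM or more in at least 3 libraries, Benjamini-Hochberg over 9543 genes, threshold 0.05, 2-sided). The code was tested on simulated data. Figures were drawn with matplotlib 3.10.9 in Python 3.11.15. The members and lists were chosen with earlier results of these data known. Named genes were the members, the 4 most abundant tested genes of each platelet list with further fixed genes (Gp5, Vwf, Tubb1, Fli1, Gata1, Nfe2, Gfi1b and Runx1), the leading marker of each blood cell list and the 8 nearest profiles. Selp, Pdlim1, Syk, Alas2 and the genes nearest to Gp9 or Itga2b alone were named after their values were seen. Some genes that this rule names are not reported here.

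Deviations from the genotype means were correlated between same-numbered libraries. The correlations for replicates 1 to 3 were 0.2, 0.18 and 0.41 between knockout and heterozygous libraries. They were -0.57, 0.51 and 0.33 between knockout and wildtype, and 0.13, 0.18 and 0 between heterozygous and wildtype libraries. Differently numbered libraries were not compared, so these values cannot show whether the numbers pair the libraries. No label states a shared batch, and the main fit used no pairing.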

Additional observations from a re-analysis of the deposited data

How the results depend on the processing

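Limma called 0 genes in each comparison under all 21 alternatives (other pseudocounts, filters and scalings, no trend, the libraries of a pair alone, a depth term, the replicate block, voom and each library left out). At an unadjusted p below 0.05 the count ranged from 18 to 252 between knockout and wildtype, 62 to 662 between heterozygous and wildtype and 29 to 499 between knockout and heterozygous libraries. The replicate block could not change a log2 difference, since each genotype has 1 library of each number. For Itga2b these stayed at 0.51 between knockout and wildtype and 0.41 between knockout and heterozygous libraries. Its standard error was 0.2988 with the block and 0.2994 without, and the block changed no call. Itga2b stayed positive under all alternatives in these 2 comparisons, from 0.25 to 0.73 and from 0.15 to 0.55 with 1 library left out. Its difference between heterozygous and wildtype libraries ranged from -0.15 to 0.36 with 1 library left out. Gp9 ranged from -0.047 to 0.34 between knockout and wildtype, -0.13 to 0.19 between heterozygous and wildtype and -0.061 to 0.33 between knockout and heterozygous libraries with 1 library left out. With depth as a term Gp9 turned to -0.017 between knockout and wildtype and -0.098 between heterozygous and wildtype libraries, where voom on recovered reads gave -0.035 and voom with the read filter of the low members -0.041; the cause was not tested. Rescaling to equal sums moved the median of all genes to 0.12 between heterozygous and wildtype libraries, beside 0.15 for Gp9 and 0.23 for Itga2b. Depth limits Pf4, Ppbp, Treml1 and Gp6, with at most 13 reads in any library.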
